A study of Mus musculus with 2 samples.

Results

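The genes described here encode the class II transactivator CIITA and the subunits of the protein assembly it binds on major histocompatibility complex (MHC) class II promoters. They were taken by symbol: Ciita, the 3 subunits of regulatory factor X (Rfx5, Rfxap and Rfxank), the 3 subunits of nuclear factor Y (Nfya, Nfyb and Nfyc), and Creb1. All 8 were found among the 43346 genes of the deposited gene tables. The samples are 2 total RNA libraries of CH12.LX, an established B cell lymphoma line from a mouse of strain B10.H-2aH-4bp/Wts, labelled female and of unknown age. The labels name the libraries biological replicates 1 and 2, list no treatment, and do not say how the cultures were kept apart, so a difference between them may be technical. Summed over genes, the tables gave 49278383 expected counts in replicate 1 and 55950529 in replicate 2, and the design has no contrast between conditions.

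MHC class II genes carry a short promoter module of S, X and Y boxes, which regulatory factor X, a cyclic AMP response element binding protein such as CREB1, and nuclear factor Y bind together. CIITA binds no DNA itself; it docks on this assembly, recruits chromatin and elongation factors, and is limiting for class II transcription in most cells. Loss of CIITA or of any subunit of regulatory factor X causes bare lymphocyte syndrome in humans, in which class II molecules are missing from the cell surface. B cells transcribe class II genes constitutively, and plasma cells silence Ciita.

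Part of the module, an element of the X box followed by the core of the Y box, could be read in the promoter windows of 6 class II genes. The S box was not searched. These stretches are shown because the assembly is known to form on such boxes of class II promoters. The windows come from RefSeq on GRCm38.p6 and span 250 bases before to 50 bases after an annotated start. They are reference sequence. The line's H-2a haplotype differs from the reference genome in class II genes, and whether the line carries these bases was not tested. Capitals mark the core of the X box, AACNNATG, or in H2-Aa the cyclic AMP response element TGACGTCA, followed by the core of the Y box, ATTGG, whose reverse complement is CCAAT.
H2-Aa: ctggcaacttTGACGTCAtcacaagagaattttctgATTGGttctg
H2-Eb1: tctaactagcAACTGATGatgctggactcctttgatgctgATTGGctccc
H2-Eb2: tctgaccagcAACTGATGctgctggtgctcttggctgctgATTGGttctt
H2-DMb1: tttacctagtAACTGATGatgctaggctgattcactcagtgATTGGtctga
H2-DMb2: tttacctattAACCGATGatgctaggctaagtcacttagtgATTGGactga
H2-Ob: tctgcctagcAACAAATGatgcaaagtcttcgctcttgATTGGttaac

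These stretches lie at chr17:34287862-34287907 for H2-Aa on the minus strand, and on the plus strand at chr17:34305768-34305817 for H2-Eb1, chr17:34325535-34325584 for H2-Eb2, chr17:34153089-34153139 for H2-DMb1, chr17:34145118-34145168 for H2-DMb2 and chr17:34238810-34238857 for H2-Ob. Between AACNNATG and ATTGG stood 20 bases in H2-Ob, 22 in H2-Eb1 and H2-Eb2, and 23 in H2-DMb1 and H2-DMb2. In H2-Aa 18 bases stood between TGACGTCA and ATTGG, a distance from another element that cannot be set beside the others. Of the 9 windows available for 8 class II genes, 8 held ATTGG on either strand (88.9%), as did 37.4% of all 32851 windows. The core AACNNATG was found in 5 of the 9 (55.6%) and in 8.86% of all windows. AACNNATG followed after 10 to 40 bases by ATTGG was found in the same 5 (55.6%) and in 0.265% of all windows. AACNNATG was chosen after the windows were read, so these shares describe the genes it was read from. The motif chosen earlier, ACAGATG, occurred in 2 of the 9 windows and in 5.01% of all, and it preceded ATTGG at that spacing in 0 of the 9 and in 0.0974% of all. TGACGTCA was found only in the H2-Aa window and in 1.79% of all windows; it contains the shorter element TGACG on both strands, which H2-Aa also held and which 20.8% of all windows held. No window was used here for H2-Ab1, H2-Ea-ps or Cd74. A match of letters is a description of the window and does not show that a factor was bound in these cells.

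**Figure D1:**
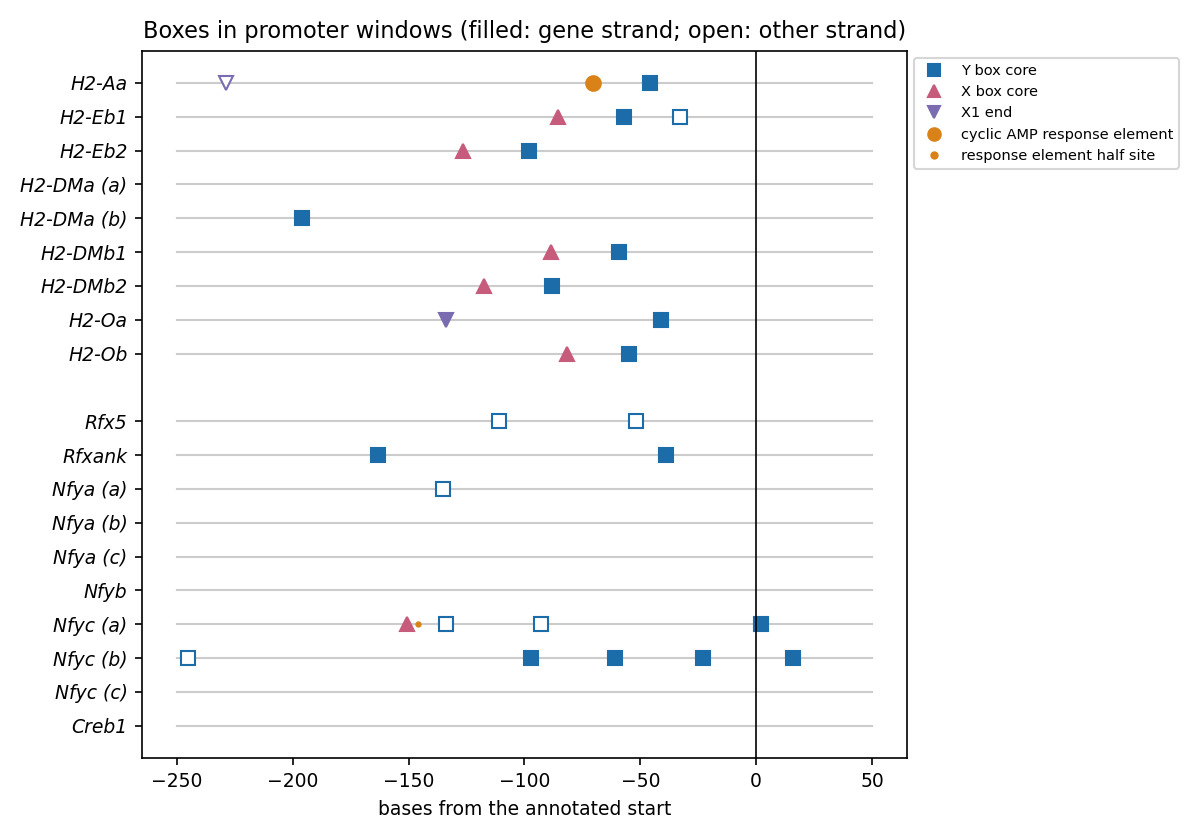
Positions of the searched letters in promoter windows, in bases from the annotated start (x axis), for class II genes (upper block) and enhanceosome subunit genes (lower block); letters in brackets separate several windows of a gene. In 5 class II windows an X box core stands 20 to 23 bases before a Y box core on the gene's strand. Of the 10 subunit windows, 5 hold a Y box core and 0 hold that pair.

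The subunit genes were also searched, because several of them code for the proteins that bind these letters. ATTGG was found in 5 of the 10 windows available for 6 of the genes (50%), against 37.4% of all windows, and lay in windows of Rfx5, Rfxank, Nfya and Nfyc. AACNNATG followed by ATTGG was found in 0 of the 10 and TGACGTCA also in 0; AACNNATG alone was found in 1, a window of Nfyc. The windows with more than 1 Y box core in the 200 bases before the start belonged to Rfx5, Rfxank and Nfyc, and the stretches between those cores are given with the cores in capitals.
Rfx5: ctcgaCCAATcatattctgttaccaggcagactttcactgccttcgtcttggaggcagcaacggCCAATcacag
Rfxank: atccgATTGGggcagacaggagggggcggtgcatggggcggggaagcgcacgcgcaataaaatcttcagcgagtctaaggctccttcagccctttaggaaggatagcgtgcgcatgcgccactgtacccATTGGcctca
Nfyc: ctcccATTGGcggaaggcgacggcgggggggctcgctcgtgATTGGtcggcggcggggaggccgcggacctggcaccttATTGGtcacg

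The Rfx5 stretch is chr3:94953990-94954063 on the plus strand, the Rfxank stretch chr8:70139229-70139367 on the minus strand, and the Nfyc stretch chr4:120825225-120825313 on the minus strand, all on GRCm38.p6. A further window of Nfyc held 2 such cores before its start, not printed here. The windows of Nfyb and Creb1 held none of the letters searched. No window was used for Ciita or Rfxap.

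All 8 genes were detected, that is, listed at 1 TPM or more in each library, as were 41.4% of the 21474 protein-coding genes. Their mean levels ran from 1.92 to 10.4 TPM. The median of the 8 was 6.64 TPM, and that of all protein-coding genes 0.195 TPM. At 10 TPM or more in each library stood 1 of the 8, Creb1, and 14.5% of protein-coding genes. TPM, the reads of a transcript per its length as a share of all transcripts, allows levels of different genes to be set side by side. Protein-coding genes held only 24.4% of TPM in replicate 1 and 24.3% in replicate 2; if only protein-coding genes made up the scale, each level would be 4.1 times higher.

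Ciita, the transactivator itself, was at 7.01 TPM in replicate 1 and 8.56 in replicate 2, with 3948 and 5260 expected counts. Its mean of 7.79 ± 1.10 TPM (SD, n = 2) exceeded that of 81.3% of protein-coding genes. The deposited credibility bounds, whose level is not given in the sources used here, ran from 6.77 to 7.21 TPM in replicate 1 and from 8.30 to 8.76 TPM in replicate 2, and did not overlap. The gene spans chr16:10480059-10528418 on the plus strand (GENCODE M21, GRCm38), and 329 of its 9535 exonic bases lie in exons of Dexi on the opposite strand. Dexi was at 3.19 TPM in replicate 1 and 3.27 in replicate 2. Whether the counting used strand is not given in the sources used here, and the part of Dexi reads in the Ciita count was not tested.

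Mouse Ciita is known to be transcribed from promoters named I, III and IV in their order along the gene, used mainly by myeloid and dendritic cells, by B cells, and by cells exposed to interferon gamma. GENCODE M21 annotates 8 Ciita transcripts, whose first exons fall into 3 groups in that order. The groups lie at chr16:10480059-10480426 with 3 transcripts, chr16:10488178-10488424 with 2 and chr16:10489746-10489864 with 3. Each group has its own annotated coding start in the first exon, shown with the ATG in capitals, because these bases tell the annotated forms apart. Which start is translated was not tested.
Ciita-205: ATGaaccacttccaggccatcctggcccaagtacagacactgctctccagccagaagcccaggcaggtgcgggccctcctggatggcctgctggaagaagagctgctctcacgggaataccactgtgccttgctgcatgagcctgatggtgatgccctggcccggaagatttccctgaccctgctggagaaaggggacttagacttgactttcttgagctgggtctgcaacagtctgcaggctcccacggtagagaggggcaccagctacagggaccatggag
Ciita-201: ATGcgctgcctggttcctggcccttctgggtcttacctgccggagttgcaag
Ciita-203: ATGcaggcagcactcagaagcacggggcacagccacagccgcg

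These are the coding parts of the first exons at chr16:10480144-10480426, chr16:10488373-10488424 and chr16:10489822-10489864 on the plus strand, from the GENCODE M21 transcript sequences. They are 283, 52 and 43 bases long. Transcripts of the upstream and downstream groups also use an inner start codon at position 10501787. Up to that codon, the annotated starts in the first exons add 101, 24 and 21 codons in this order. The deposited M4 transcript tables list only Ciita-201, of the middle group, so its share of the gene was 100% in both libraries by construction. The use of the 3 promoters was therefore not measured in these tables, and the level of Ciita-201 cannot be read as the activity of the B cell promoter.

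Genes known to act on the B cell promoter of Ciita were all detected, 7 of 7, with a median of 7.02 TPM. Tcf3, which encodes the E proteins E12 and E47, was highest at 42.1 TPM in replicate 1 and 47.9 in replicate 2. Irf4, which can act there with PU.1, was at 32.95 and 27.2 TPM in the same order, and Spi1, the gene of PU.1, at 5.74 and 6.17 TPM. Prdm1, whose product silences Ciita in plasma cells, was the lowest of the 7 at 2.64 TPM in replicate 1 and 1.94 in replicate 2. Of 9 genes listed for the interferon gamma route to promoter IV, among them Socs1, 8 were detected. Irf2 was the lowest of the 9, at 0.88 TPM in replicate 1 and 0.91 in replicate 2. Irf1, which binds promoter IV, was at 11.2 TPM in replicate 1 and 15.6 in replicate 2.

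Regulatory factor X was represented by 3 genes at different gene levels but similar summed levels of the listed coding transcripts. Rfx5, whose product carries the DNA-binding domain, was at 2.89 TPM in replicate 1 and 2.85 in replicate 2 (mean 2.87 ± 0.0283, SD, n = 2). Rfxap, whose product is the associated protein of the complex, was at 5.88 TPM in replicate 1 and 4.89 in replicate 2 (mean 5.39 ± 0.700). Rfxank, whose product holds the complex together through ankyrin repeats, was the lowest of the 8 genes at 1.90 TPM in replicate 1 and 1.93 in replicate 2 (mean 1.92 ± 0.0212). In both libraries the credibility bounds of Rfxap lay above those of Rfx5, and those of Rfx5 above those of Rfxank.

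The order among these subunits changed when only transcripts annotated as protein-coding were summed, an alternative chosen after the values were seen. Rfx5 was then at 1.86 TPM in replicate 1 and 2.02 in replicate 2, Rfxank at 1.90 and 1.93 TPM, and Rfxap at 1.77 and 1.75 TPM. The 3 genes thus lay between 1.75 and 2.02 TPM. Rfx5 and Rfxank changed places between the libraries, and Rfxap was below both in each. By the same sum the nuclear factor Y genes lay between 4.48 and 9.36 TPM and Ciita between 7.01 and 8.56 TPM. All 3 subunits of regulatory factor X were thus below every other of the 8 genes in both libraries. For Rfxank this place rested on a single listed transcript of 3676 bases, 777 of them coding. Its coding share was 100% by construction, and its level with other transcript models was not tested.

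Rfxap moved most under this sum because a noncoding transcript held most of its TPM. Rfxap-203, a processed transcript of 478 bases, held 63.1% of the gene's TPM in replicate 1 and 55.1% in replicate 2, while the coding Rfxap-201 of 2162 bases held 30.2% and 35.7%. In expected counts the shares turned round, with 74.2% in replicate 1 and 79.6% in replicate 2 for Rfxap-201. TPM divides by length, so a short model with few reads weighs more; Rfxap-203 rested on 131 expected counts in replicate 1 and 101 in replicate 2.

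Rfx5 was spread over 17 annotated transcripts. The coding Rfx5-207 held 47.9% of the gene's TPM in replicate 1 and 49.6% in replicate 2. Transcripts with the longest coding sequence, of 1974 bases, together held 1.49 TPM in replicate 1 and 1.53 in replicate 2. Retained intron models held 25.4% in replicate 1 and 12.8% in replicate 2, and models marked for nonsense-mediated decay 9.77% and 16.5%. The gene lies at chr3:94954075-94961561 on the plus strand, and 1471 of its 5497 exonic bases are shared with exons of B230398E01Rik on the opposite strand, which was at only 0.16 TPM in replicate 1 and 0.15 in replicate 2.

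Rfxank was listed with a single transcript, Rfxank-201, of 3676 bases, of which 777 are coding. M21 annotates 4 transcripts for it, so shares among them were not measured. The gene lies at chr8:70130794-70139154 on the minus strand, and 1341 of its 3967 exonic bases overlap exons of Nr2c2ap on the opposite strand. Nr2c2ap was at 5.95 TPM with 668 expected counts in replicate 1 and at 4.90 TPM with 597 in replicate 2, against 740 and 818 counts for Rfxank. How many reads of the overlap were given to either gene was not tested.

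Among the 8 genes of the RFX family, 3 were detected in these libraries (37.5%). Besides Rfx5 these were Rfx7, at 5.08 TPM in replicate 1 and 4.42 in replicate 2, and Rfx1 at 2.00 and 2.22 TPM. Rfx3 and Rfx2 stayed at or under 0.21 TPM. Rfx6 and Rfx8 had 0 counts in both libraries; 3 counts, the limit that a count of 0 allows for counting error, would correspond to 0.0102 TPM for Rfx6 and 0.0226 TPM for Rfx8 in replicate 1.

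The 3 subunit genes of nuclear factor Y, the trimer that binds the Y box, were all above the subunits of regulatory factor X. Nfya encodes the subunit that makes the sequence-specific contact, and Nfyb and Nfyc encode a histone-fold pair. Nfyc was at 10.03 TPM in replicate 1 and 8.61 in replicate 2 (mean 9.32 ± 1.00, SD, n = 2). Nfya was at 6.20 TPM in replicate 1 and 7.29 in replicate 2 (mean 6.75 ± 0.771), and Nfyb at 6.64 and 6.41 TPM (mean 6.53 ± 0.163). Nfya and Nfyb overlapped between the libraries, and their order was opposite in replicates 1 and 2. Nfyc stood above both in each library.

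Nfya has a coding exon of 87 bases that can be skipped, which is known to give a long and a short form of NF-YA that differ in the glutamine-rich activation domain. Its bases are given here because they alone separate the forms (chr17:48398982-48399068, minus strand, GRCm38).
Nfya-201: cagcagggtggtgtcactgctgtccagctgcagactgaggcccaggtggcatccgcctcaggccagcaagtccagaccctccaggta

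Coding transcripts with the exon summed to 1.89 TPM in replicate 1 and 2.86 in replicate 2, and those without it to 2.59 and 2.82 TPM. The exon was therefore present in 42.2% of this TPM in replicate 1 and 50.4% in replicate 2. In expected counts the same transcripts held 56.4% in replicate 1 and 65.3% in replicate 2. Which form was the more abundant thus depended on the library and on the scale, and both forms were listed at a similar level. The transcripts with at least 10% of the gene's TPM in both libraries were Nfya-203 and Nfya-212 without the exon, at 26.7% and 15.04% in replicate 1 and 28.0% and 10.7% in replicate 2, and Nfya-201 and Nfya-202 with it, at 14.6% and 16.0% in replicate 1 and 21.8% and 14.8% in replicate 2. Retained intron models held 27.6% of Nfya TPM in replicate 1 and 22.1% in replicate 2. The gene lies at chr17:48386885-48409906 on the minus strand and shares no exonic base with another gene.

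Nfyb was the most uniform of the genes with several transcripts. Nfyb-204 held 85.4% of its TPM in replicate 1 and 85.6% in replicate 2. Nfyc was mainly Nfyc-201, with 81.7% in replicate 1 and 65.5% in replicate 2. Nfyc-202, picked out after its values were seen, came next, with 7.37% in replicate 1 and 24.7% in replicate 2; it has the same coding length as Nfyc-201, 1005 bases, in a model of 1008 bases. The credibility bounds of Nfyc-202 ran from 1.14e-04 to 1.38 TPM in replicate 1 and from 1.47 to 2.86 TPM in replicate 2, so the split between the 2 models was poorly set in replicate 1. Nfyb lies at chr10:82748701-82764144 and Nfyc at chr4:120757438-120831572, both on the minus strand.

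Other genes of histone-fold dimers, which are built like NF-YB and NF-YC, were detected in 5 of 5 cases. Drap1, a subunit of negative cofactor 2, was highest at 33.65 TPM in replicate 1 and 33.3 in replicate 2, and its partner gene Dr1 lowest at 5.38 and 4.35 TPM. Nfyb and Nfyc thus lay within the range of this group.

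Creb1, which encodes a factor that binds the X2 part of the X box, had the highest mean of the 8 genes. It was at 10.03 TPM in replicate 1 and 10.7 in replicate 2 (mean 10.4 ± 0.474, SD, n = 2), above 85.01% of protein-coding genes. This level rested on the transcript models. With release M2 it was at 3.33 TPM in replicate 1 and 3.62 in replicate 2, although the expected counts were nearly the same, 2944 and 3482 with M2 against 3031 and 3578 with M4. The mean length that the tables give for the gene was 8373 bases in replicate 1 and 8378 bases in replicate 2 with M2, against 2894 and 2934 bases with M4. With M2, Creb1 would stand below Ciita, Nfya, Nfyb, Nfyc and Rfxap.

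The lengths of the listed transcripts differ widely. Creb1-202, of 8364 bases, held 67.9% of the expected counts averaged over the libraries but only 22.7% of the gene's TPM in replicate 1 and 22.9% in replicate 2. The shorter Creb1-209 held 31.6% of TPM in replicate 1 and 32.2% in replicate 2, Creb1-207 18.8% and 20.4%, and Creb1-203 17.1% and 15.03%. Creb1 lies at chr1:64532645-64604548 on the plus strand.

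An exon of 42 bases, included in the alpha form of CREB and skipped in the delta form, is printed because the forms are told apart by it (chr1:64559727-64559768, plus strand, GRCm38).
Creb1-209: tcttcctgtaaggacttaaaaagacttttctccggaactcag

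Coding transcripts with this exon held 34.5% of the TPM of those that span it in replicate 1 and 35.2% in replicate 2. In expected counts they held 13.3% in replicate 1 and 14.6% in replicate 2. The transcripts without the exon were the larger share on either scale and in both libraries. Of the CREB subfamily and its coactivators, 4 of 6 were detected. Atf1, a close relative that binds the same element, was at 7.40 TPM in replicate 1 and 6.95 in replicate 2, Crem at 2.59 and 4.01 TPM, and Crtc1, a coactivator gene, was lowest at 0.45 and 0.47 TPM.

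**Figure D2:**
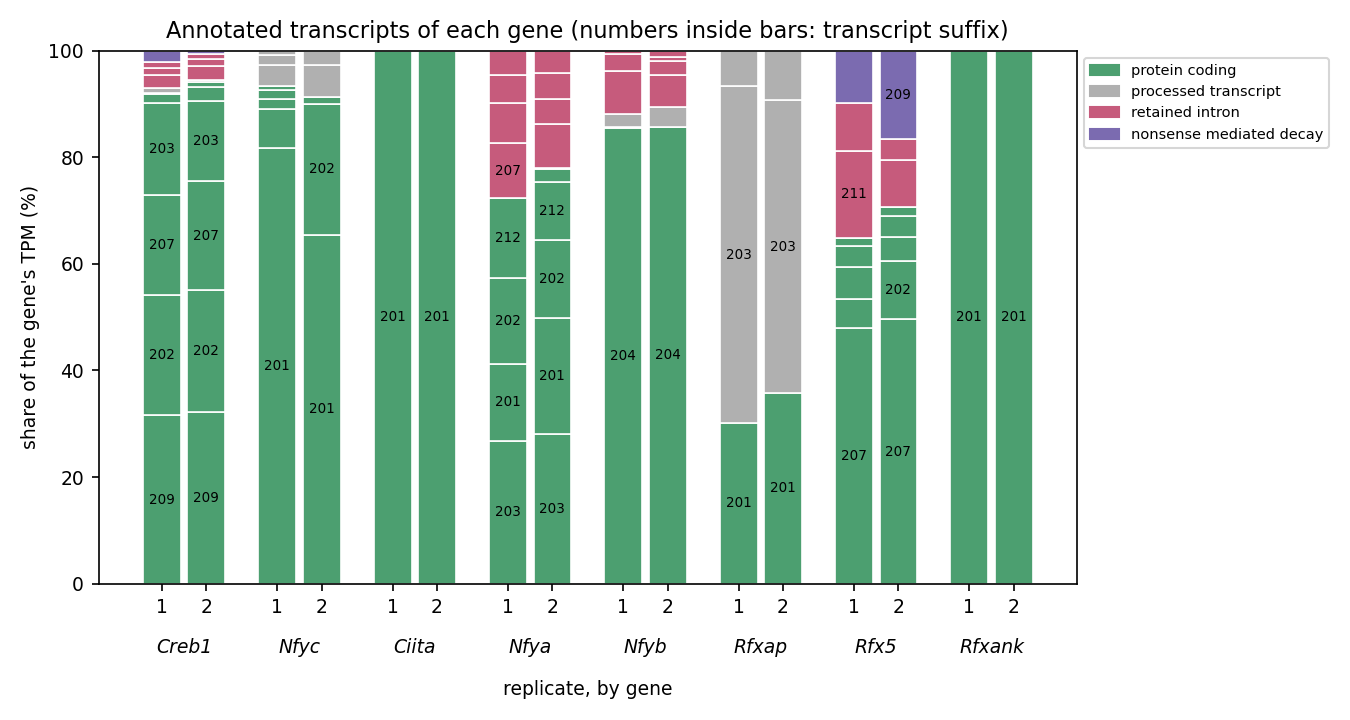
Share of each gene's TPM held by its annotated transcripts (y axis, percent) in replicates 1 and 2 of each gene, coloured by annotated type; numbers name transcripts with 10% or more. Ciita and Rfxank are listed with 1 transcript each, and the noncoding Rfxap-203 holds 63.1% in replicate 1 and 55.1% in replicate 2.

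In the order of gene levels, Creb1 was followed by Nfyc, Ciita, Nfya, Nfyb, Rfxap, Rfx5 and Rfxank. The library values of neighbours met or overlapped for Creb1 and Nfyc, for Ciita and Nfya, and for Nfya and Nfyb. Nfyc and Ciita were separated only by 8.61 against 8.56 TPM, and Nfyb and Rfxap by 6.41 against 5.88 TPM, with overlapping credibility bounds in at least 1 library. The steps from Rfxap to Rfx5 and from Rfx5 to Rfxank were the ones at which the bounds were apart in both libraries.

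**Figure D3:**
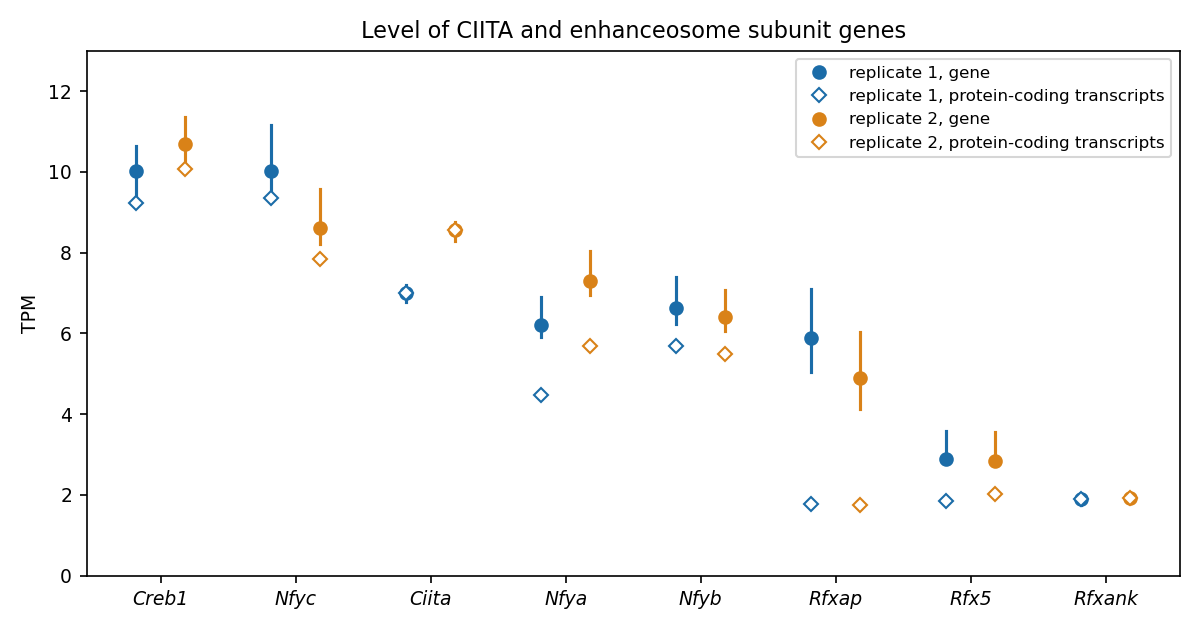
Level in TPM (y axis) of each gene in replicate 1 (left of each pair, blue) and replicate 2 (right, orange); filled circles are gene levels with lines for the deposited credibility bounds, and open diamonds the sum of protein-coding transcripts. The 3 subunits of regulatory factor X lie at 1.75 to 2.02 TPM by listed coding transcripts, below all other genes, with Rfxank resting on 1 listed transcript.

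The class II genes, the known targets of the assembly, were all detected, 11 of 11, and 8 of them reached 10 TPM in each library. Cd74, the invariant chain, was at 496 TPM in replicate 1 and 516 in replicate 2. Among the peptide-binding chains, H2-Eb1 was at 137 and 143 TPM, H2-Ea-ps at 131 and 111 TPM, H2-Aa at 105 and 87.7 TPM, and H2-Ab1 at 35.25 and 25.8 TPM, replicate 1 before replicate 2 in each case. H2-Ea-ps is annotated as a polymorphic pseudogene, since the reference strain carries an inactive allele. H2-Eb2 was at 2.40 TPM in replicate 1 and 2.04 in replicate 2. The line's H-2a haplotype differs from the reference genome in these genes, and the effect on their counts was not tested.

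Among the genes for peptide loading, H2-DMb2 was at 30.3 TPM in replicate 1 and 24.0 in replicate 2, H2-DMb1 at 15.1 and 12.9 TPM, and H2-DMa at 12.98 and 11.1 TPM. H2-Oa, whose product restrains loading together with that of H2-Ob, was at 3.86 TPM in replicate 1 and 5.11 in replicate 2. H2-Ob was at 1.44 TPM in replicate 1 and 2.54 in replicate 2, the lowest mean of the 11. The reads of H2-DMb1 and H2-DMb2, which are closely similar copies, could be split between them, so their separate values are uncertain.

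In a list of 5 genes of the class I pathway and Nlrc5, which encodes their transactivator, 6 of 6 were detected. B2m, the light chain, was highest at 356 TPM in replicate 1 and 361 in replicate 2. Nlrc5 was the lowest of the 6 at 12.7 and 10.8 TPM. Within the NLR family, to which Nlrc5 and Ciita belong, these were the 2 highest of 9 genes in both libraries, 6 of the 9 were detected, and Nlrp3 was lowest with 0 counts in replicate 1 and 3 counts in replicate 2.

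Of 12 genes for cofactors of CIITA and for deacetylases that oppose it, 10 were detected. Smarca4, the remodelling ATPase BRG1, stood highest with 19.0 TPM in replicate 1 and 17.7 in replicate 2, and Ncoa1 the lowest at 0.54 and 0.65 TPM. The acetyltransferase genes Crebbp and Ep300 were at 3.46 and 4.38 TPM in replicate 1 and at 3.72 and 4.32 TPM in replicate 2. The deacetylase genes Hdac1 and Hdac2 were at 18.2 and 17.1 TPM in replicate 1 and at 17.2 and 12.5 TPM in replicate 2.

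Markers of the labelled cell type were present: all 8 B cell genes checked were detected, with summed levels of 238 TPM in replicate 1 and 237 in replicate 2. They ran from Pax5, at 6.09 TPM in replicate 1 and 6.99 in replicate 2, to Cd79b at 121 and 125 TPM. Of the macrophage markers 1 of 6 was detected, Adgre1, at 4.63 TPM in replicate 1 and 6.38 in replicate 2, while Cd14 had 0 counts and Lyz2 was at or under 0.02 TPM. Of the dendritic cell markers 2 of 6 were detected, Batf3 and Zbtb46, and Clec9a had 0 counts. Batf3 was at 9.32 TPM in replicate 1 and 12.01 in replicate 2, above Pax5 in each library. Zbtb46 was at 1.01 and 2.31 TPM in the same order. Of the T cell markers 3 of 6 were detected, Cd2, Cd3g and Cd3d, and Cd3e had 0 counts. Summed levels were 10.8 TPM in replicate 1 and 14.98 in replicate 2 for the dendritic cell list, 4.97 and 6.71 TPM for the macrophage list, and 8.25 and 8.91 TPM for the T cell list. The part of other cells in the levels of Ciita and the class II genes was not tested.

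**Figure D4:**
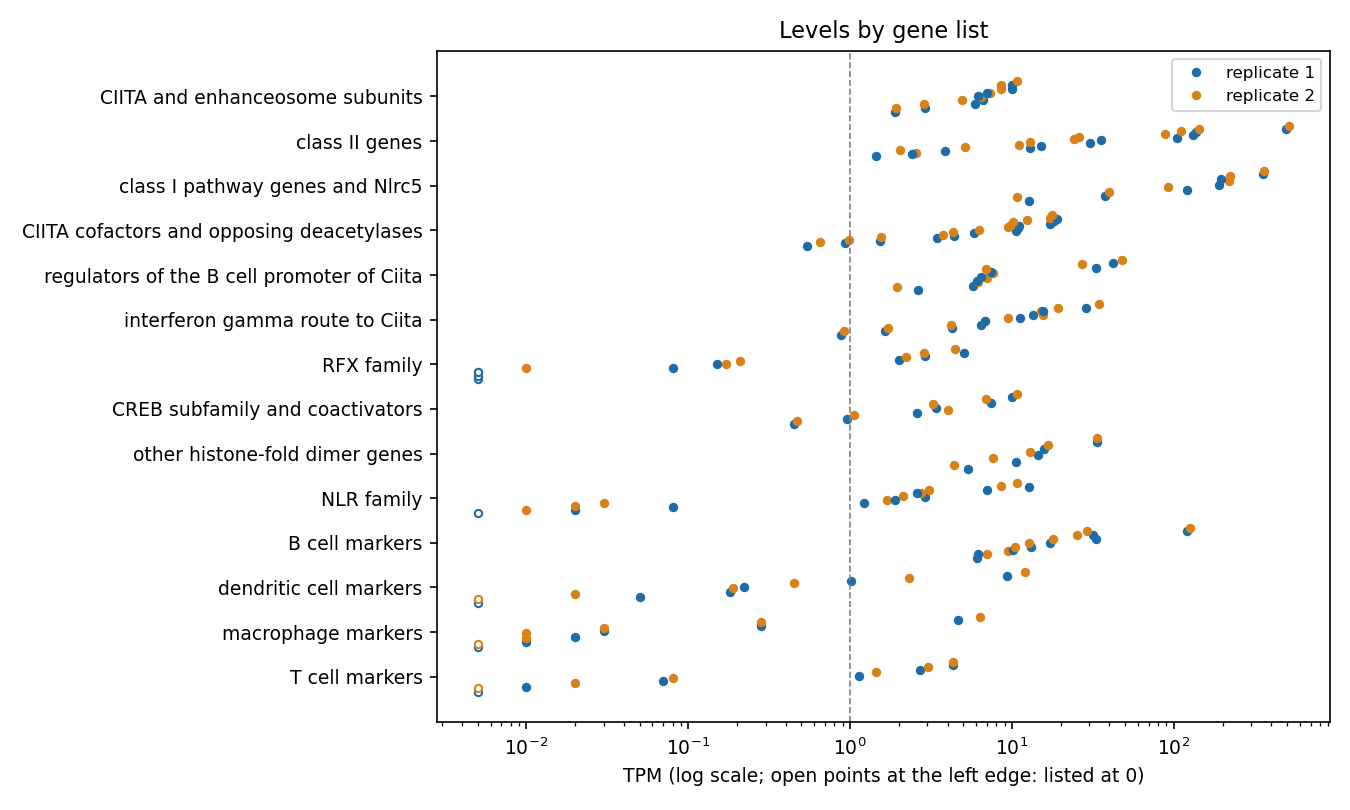
TPM on a log scale (x axis) of every gene of each list in replicate 1 (blue) and replicate 2 (orange); the dashed line marks 1 TPM. All 8 CIITA and enhanceosome genes, 11 class II genes and 8 B cell markers lie at or above 1 TPM, whereas most dendritic cell and macrophage markers lie below it.

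The libraries were compared with a two-sided exact binomial test on scaled counts, with Benjamini-Hochberg adjustment over all 15438 genes tested. At an adjusted p under 0.05 and a ratio of 2 or more, 0 of the 8 genes were called, as were 4.77% of all genes tested. With the ratio left aside 4 of the 8 passed, close to the 50.4% of all genes that did. The same 4 were under an unadjusted p of 0.05, and none of the 8 reached a ratio of 2 with DESeq2 size factors either. The test covers counting error only.

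Of the 4 genes, 1 was higher in replicate 1, while 25.1% of all genes were, and 3 were lower in replicate 1, while 25.2% of all genes were. Nfyc was higher, with a log2 ratio of replicate 1 over replicate 2 of 0.36 (95% counting interval 0.26 to 0.46; exact test, adjusted p = 8.516e-12). Ciita was lower in replicate 1, with a log2 ratio of -0.32 (-0.38 to -0.26; exact test, adjusted p = 2.649e-24). Nfya was lower with -0.26 (-0.36 to -0.16; exact test, adjusted p = 8.807e-07) and Creb1 with -0.14 (-0.21 to -0.07; exact test, adjusted p = 2.558e-04). The bounds of TPM overlapped between the libraries for Nfyc and Creb1 but not for Ciita and Nfya.

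The remaining 4 genes did not pass, and their counting intervals give what differences the depth would allow. The log2 ratios were -0.06 for Rfx5 (-0.18 to 0.07), -0.05 for Rfxank (-0.19 to 0.10), 0.10 for Rfxap (-0.08 to 0.28) and 0.04 for Nfyb (-0.06 to 0.14). The 3 subunits of regulatory factor X are among these 4. Over all genes tested, the median absolute log2 ratio was 0.25, and Ciita, Nfya and Nfyc were the ones among the 8 that exceeded it.

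The class II genes did not all move with Ciita between the libraries. By adjusted p alone 11 of 11 differed, beside 50.4% of all genes, and 0 of 11 reached a ratio of 2, beside 4.77% of all genes. A gene with many counts passes at a small ratio, as Cd74 did with 58410 counts in replicate 1 and 66085 in replicate 2. The share over all genes is not matched for counts. Of the 11, 7 were higher in replicate 1 (25.1% of all genes), with H2-Ab1 at a log2 ratio of 0.45 at most, and 4 were lower (25.2% of all genes), with H2-Ob at -0.69. Ciita was lower in replicate 1, as were Cd74 at -0.08, H2-Eb1 at -0.08, H2-Oa at -0.43 and H2-Ob. Scaling by library totals alone, which was not applied to the class II genes, moved Ciita from -0.315 to -0.231. The directions of Cd74 and H2-Eb1 thus rested on the scaling. With 2 libraries no relation between Ciita and its targets can be tested.

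Among the genes known to control Ciita, those of the interferon gamma route were lower in replicate 1 in 6 of 9 cases by adjusted p alone, beside 25.2% of all genes, and higher in 0, beside 25.1%, with Irf1 at a log2 ratio of -0.50; for 3 the difference was not past the threshold. By adjusted p alone, regulators of the B cell promoter were higher in replicate 1 in 2 of 7 cases, beside 25.1% of all genes. These were Irf4 at 0.25 and Prdm1 at 0.43. In 3 of the 7 cases they were lower, beside 25.2% of all genes. Jak1, counted as lower in the interferon gamma list, stood at only -0.08, and Sp1, counted as lower among the regulators, at -0.07. The directions of Jak1 and Sp1 thus also rested on the scaling. In these lists 0 genes passed both the adjusted p and a ratio of 2, beside 4.77% of all genes. Elsewhere in the lists both the adjusted p and the ratio of 2 were passed by Rfx2, Zbtb46 and Xcr1, lower in replicate 1 with log2 ratios of -1.07, -1.15 and -1.07, and by Nlrc3, higher in replicate 1 with 1.35 (exact test, adjusted p of 0.002747 or lower for the first 3 and 0.01134 for Nlrc3). These 4 were low, with means of 0.055 to 1.66 TPM.

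**Figure D5:**
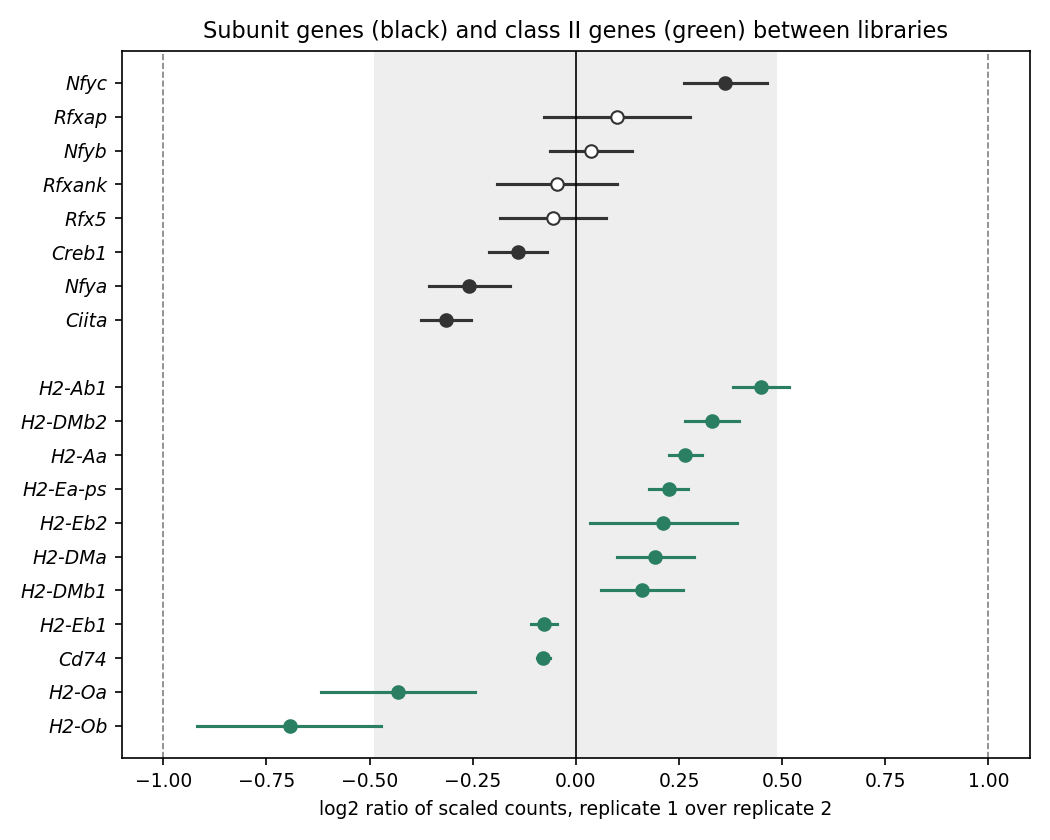
Log2 ratio of scaled counts, replicate 1 over replicate 2 (x axis), with 95% counting intervals, for the 8 genes (black) and the class II genes (green); filled points passed the adjusted p, dashed lines mark a ratio of 2, and the grey band holds the 75% of all genes tested with the smallest absolute ratios. All points lie inside the dashed lines, and H2-Ob is the only point outside the band.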

How the data were processed

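Members and gene lists were chosen with earlier results of these data known. The deposited expected counts, which the file headers name so, came in tables for annotation releases M2, M3 and M4 of assembly mm10, with aligner and quantifier not given in the sources used here. TPM and FPKM are the authors' deposited values, so named per the file headers. The deposited percent columns give a transcript's share of its gene, and other deposited columns, per the file headers, give credibility bounds of TPM. M4 was the main release. Of its 69691 rows, 26248 with numeric identifiers and 97 for spike-in sequences were left out; they held 5.68e-05% of counts in replicate 1 and 5.36e-05% in replicate 2. GENCODE M21, also on mm10, supplied symbols, biotypes and positions (42462 of 43346 genes matched).

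Counts were rounded, genes with at least 10 counts summed over the libraries were tested, and library totals were scaled by TMM (edgeR 4.0.16, R 4.3.3). A two-sided exact conditional binomial test with the smaller tail doubled compared replicate 1 with replicate 2, at a Benjamini-Hochberg adjusted p of 0.05 and a ratio of 2; intervals are Clopper-Pearson at 95% and cover counting error only. The test was tested on simulated data. Alternatives were releases M2 and M3, posterior mean TPM, FPKM, TPM rescaled to protein-coding genes, DESeq2 1.42.0 size factors, library totals, no count filter, other ratios, and each library alone. Named are all 8 genes, transcripts with at least 10% in both libraries, the class II genes, and the highest and lowest of each list; other list genes named were chosen after their values were seen. Of the genes this rule takes, 1 is not reported here. Python 3.11.15, scipy 1.17.1 and matplotlib 3.10.9 served for the rest.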

Additional observations from a re-analysis of the deposited data

How the results depend on the processing

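The number of the 8 genes detected stayed at 8 with releases M2 and M3, posterior mean TPM, FPKM, TPM rescaled to protein-coding genes, TPM of protein-coding transcripts and with either library alone; it fell to 1 at a threshold of 10 TPM. Without a criterion on the ratio, 7779 genes and 4 of the 8 passed; at a ratio of 1.5, 1685 genes and 0 of the 8 did, against 737 and 0 at a ratio of 2. Scaling by library totals alone shifted the median log2 ratio of all genes to 0.08 and raised the share of calls higher in replicate 1 to 64.2%, against 49.9% with TMM. The ratio then turned to 0.029 for Rfx5 and 0.039 for Rfxank, Nfyb passed at 0.12 and Creb1 no longer did at -0.06; with TPM ratios Rfx5 turned to 0.019. The 8 ratios kept direction and side of the threshold with DESeq2 size factors, no count filter, M2 and M3. Mean Creb1 was 3.48 TPM with M2, against 10.4 TPM. The share of Nfya coding transcripts with the skipped exon was 46.3% of TPM and 60.8% of counts, that of Creb1 34.8% and 13.95%. No share of Ciita promoters could be computed, since 1 transcript is listed. No paired analysis was possible because there is 1 group. With 2 libraries, the depth bounds counting error and not the spread between cultures.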
